A study of Capra hircus with 3 samples.

Results

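The insulin-like growth factor (IGF) genes described here are the ligands IGF1 and IGF2, the receptors IGF1R and IGF2R, and the binding proteins IGFBP2, IGFBP3, IGFBP4, IGFBP5, IGFBP6 and IGFBP7. They were found by the goat NCBI gene ID of each symbol, and all 10 had a value, out of 13023 protein-coding genes with a matched ID. Each of the 10 was listed at 1 locus and had more than 1 FPKM in every library, a level that divides the sequenced fragments of a locus by its length and by the depth of the library. Mammary gland tissue of Laoshan dairy goats was taken surgically under anaesthesia in early lactation at day 10 after parturition, in peak lactation at day 90 and in late lactation at day 210. The animals were healthy 4-year-old goats in the third lactation, housed on 1 farm with free access to food and water, and no group carried a transgene or a treatment. RNA of 5 goats was mixed in equal amounts at each stage into 1 library, and the methods name 5 goats for all stages, so the same animals appear to stand behind the 3 pools. The spread between goats is therefore not measured, no test was possible, and every difference below is a difference between 2 pooled libraries. The deposited FPKM come without read numbers, so the depth behind each value is unknown.

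IGF1 and IGF2 are small secreted peptides related to insulin. Both act through IGF1R, a receptor tyrosine kinase, whereas IGF2R has no kinase, takes IGF2 into the cell and also carries mannose 6-phosphate-tagged enzymes to the lysosome. The binding proteins hold the ligands outside the cell and set how much of them reaches the receptor, and IGFBP7 binds them with low affinity. In the mammary gland, IGF1 is made largely in the stroma under growth hormone and supports the growth and survival of the epithelium, and IGFBP5 is known for its increase in the involuting gland.

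The labels of the libraries for peak and late lactation are in doubt, so the libraries are called E-labelled, P-labelled and L-labelled here. The columns were assigned by the sample labels. Across 140 lncRNA genes with FPKM in the deposited columns and in the study's supplementary lists, the log2 ratio of L over P in the lists had a Pearson correlation of -0.75 with L over P by label. The list ratio of L over E followed the deposited P over E with a correlation of 0.65 across 129 genes, and its correlation with the deposited L over E was 0.02. The list ratio of P over E had a correlation of 0.44 with the deposited L over E and 0.05 with the deposited P over E across 65 genes. These are descriptions across genes, which are not replicates. The lists hold lncRNAs that the study called differentially expressed, so the correlations cover a set selected for change. If the 2 columns were exchanged, each value given for the P-labelled library would belong to late lactation and each value for the L-labelled library to peak lactation, while the values themselves would stay the same.

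The P-labelled library stood apart from both others in most milk genes as well. All 7 measured milk genes were at least 2-fold lower in it than in the E-labelled library, with a median log2 ratio of -1.52. Against the P-labelled library, 6 of them were at least 2-fold higher in the L-labelled one, with a median log2 ratio of 1.90. LALBA was the exception. All 8 luminal and all 8 basal and myoepithelial markers were above 0 in every library, with median log2 ratios of P over E of 0.24 and -0.22. Single markers differed more in P over E: luminal KRT7 was at 1.04, luminal ELF5 at -1.85 and basal OXTR at -1.74, and the others lay within 2-fold. The summed luminal FPKM was 1686, 1180 and 1610 in the E-, P- and L-labelled libraries, so median and sum differed in sign for P over E. LALBA, a milk protein gene, had 70053 FPKM in the E-labelled and 15214 FPKM in the P-labelled library. It was listed at 0 in the L-labelled one, so a 0 in these values is given only as listed. In the values with 7 digits, the last digit was 5 in 95.7% to 99.3% of cases, as in means of 2 numbers of 6 digits. A deposited FPKM may therefore be a mean of 2 estimates for the same library, and the sources used here do not say which. The 10 most abundant loci held 54.9% to 61.5% of the summed FPKM of a library.

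Both ligands were highest in the P-labelled library. IGF1 (gene ID 100860838) is listed on scaffold NW_005100669.1 from 7182970 to 7259539, and the coordinates are given as deposited, since the study's methods name 2 goat genome references without tying these scaffolds to either. It had 12.3 FPKM in the E-labelled, 29.9 FPKM in the P-labelled and 10.6 FPKM in the L-labelled library. The P level was 2.43-fold above E and 2.81-fold above L, and the E and L levels lay within 1.16-fold of each other. IGF2 (gene ID 100861277), on scaffold NW_005100981.1 from 5455 to 13205, had 4.53 FPKM in the E-labelled, 21.0 FPKM in the P-labelled and 1.74 FPKM in the L-labelled library. IGF2 had the widest range of the 10 genes, with a P level 4.65-fold above E and 12.1-fold above L, and it was also the one member at least 2-fold apart between L and E, at 2.61-fold lower in L.

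The balance between the ligands differed between libraries. IGF1 exceeded IGF2 in each of them, by 2.72-fold in the E-labelled, 1.42-fold in the P-labelled and 6.13-fold in the L-labelled library, on the FPKM scale, which is per transcript length. IGF2 made up 26.9%, 41.3% and 14.0% of the summed ligand FPKM in that order. The percentile of IGF2 among the 13023 protein-coding genes was 37.2 in the E-labelled, 85.4 in the P-labelled and 19.9 in the L-labelled library. IGF1 lay at percentiles 68.3, 91.3 and 64.3, so the order of the libraries was the same for both ligands and the spread was wider for IGF2.

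**Figure D1:**
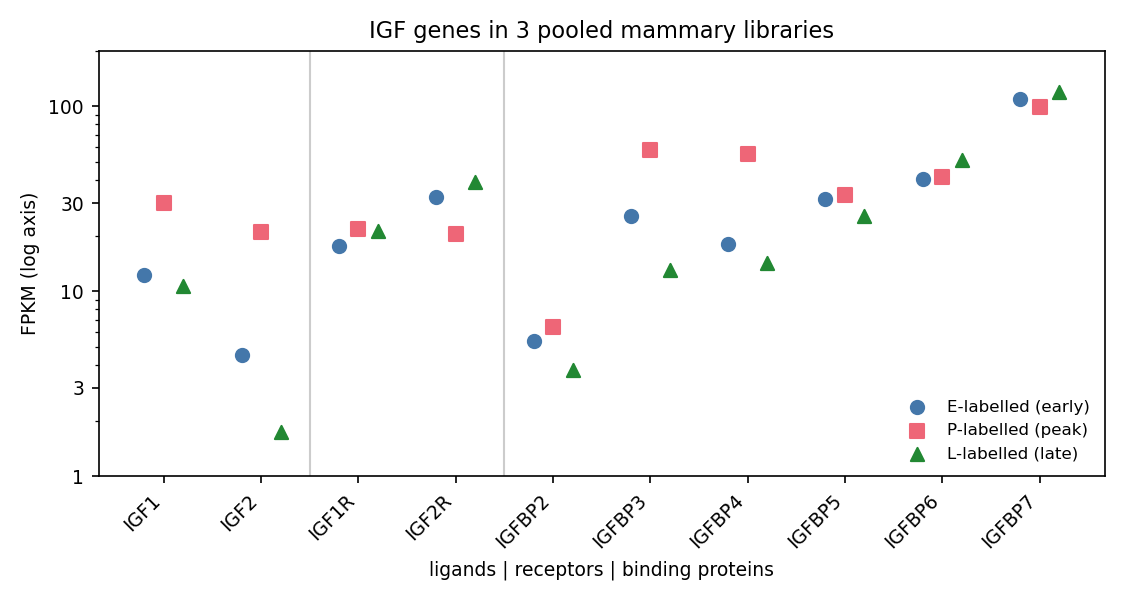
FPKM (log axis) of the 10 IGF genes in the E-labelled (circles), P-labelled (squares) and L-labelled (triangles) libraries, 1 pooled library per stage and therefore without error bars. The P-labelled squares stand at least 2-fold above both other symbols for IGF1, IGF2, IGFBP3 and IGFBP4, whereas the 3 symbols of IGFBP7 lie between 99.2 and 120.3 FPKM.

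The receptors differed less between libraries than the ligands. IGF1R (gene ID 100861165), on scaffold NW_005100897.1 from 4465236 to 4710420, had 17.5, 21.8 and 21.1 FPKM in the E-, P- and L-labelled libraries. Its highest level was 1.24-fold above its lowest. IGF2R (gene ID 100860744), on scaffold NW_005100755.1 from 9026189 to 9094524, had 32.5, 20.5 and 38.9 FPKM in the same order, and was lowest in the P-labelled library where the ligands were highest. Its L level was 1.90-fold above its P level, a log2 ratio of 0.93 that lies just inside the 2-fold limit. IGF2R exceeded IGF1R by 1.86-fold in the E-labelled and 1.84-fold in the L-labelled library, while in the P-labelled library IGF1R was the higher of the pair by 1.06-fold. INSR, the insulin receptor and the closest relative of IGF1R, had 36.7, 34.7 and 36.8 FPKM and was above IGF1R in each library.

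Among the binding proteins, IGFBP3 and IGFBP4 were the members that differed. IGFBP3 (gene ID 102174541), the main carrier of IGFs in blood, is listed on scaffold NW_005100654.1 from 11481315 to 11489071 and had 25.5, 58.2 and 13.0 FPKM in the E-, P- and L-labelled libraries. The P level was 2.28-fold above E and 4.48-fold above L, and the L level was 1.96-fold below E, just short of 2-fold. IGFBP4 (gene ID 100860812), which is known mostly as an inhibitor of IGF action, is listed on scaffold NW_005100886.1 from 16412874 to 16422810 and had 18.04, 55.1 and 14.2 FPKM. It was 3.05-fold higher in P than in E and 3.88-fold higher in P than in L, while the L level was 1.27-fold below E. IGFBP3 moved from rank 5 among the 10 genes in the E-labelled library to rank 2 in the P-labelled and rank 7 in the L-labelled one, and IGFBP4 took ranks 6, 3 and 6.

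The other 4 binding proteins stayed within 2-fold in all 3 comparisons of the deposited FPKM. In L over P, IGFBP2, IGFBP6 and IGFBP7 passed 2-fold under other scalings, which are given at the end. IGFBP7 (gene ID 102184134), a secreted protein also abundant in vessel walls, is listed on scaffold NW_005100696.1 from 44568987 to 44632038 and was the most abundant of the 10 genes in each library, at 109.9, 99.2 and 120.3 FPKM. POLR2B, a subunit of RNA polymerase II, is listed at the same span as IGFBP7 with 28.6, 23.8 and 30.3 FPKM, and how reads were shared between both is not known. IGFBP6 (gene ID 102180462), which prefers IGF2 over IGF1, is listed on scaffold NW_005100666.1 from 16635339 to 16638932. It had 40.5, 41.6 and 51.2 FPKM, so the preferred ligand IGF2 varied 12.1-fold and this binding protein 1.26-fold.

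IGFBP5 (gene ID 100860950) and IGFBP2 (gene ID 102175172) are neighbours on scaffold NW_005100623.1, from 6665334 to 6682617 and from 6643711 to 6651875, with 13458 nt between them. IGFBP5 had 31.5, 33.4 and 25.4 FPKM in the E-, P- and L-labelled libraries, a range of 1.31-fold. IGFBP2 was far lower at 5.36, 6.45 and 3.76 FPKM, a range of 1.71-fold. Both were highest in the P-labelled and lowest in the L-labelled library by less than 2-fold, but the log2 ratio of P over E turned to -0.21 for IGFBP2 and -0.40 for IGFBP5 with ratios centred on fibroblast and matrix markers.

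Between the E- and P-labelled libraries, 4 of the 10 IGF genes (IGF1, IGF2, IGFBP3 and IGFBP4) were at least 2-fold higher in P and 0 were at least 2-fold lower. Of all protein-coding genes above 0 in either library, 17.7% were at least 2-fold apart in this comparison 10.9% being higher and 6.8% lower in P. With at least 1 FPKM in either library, these shares were 16.7%, 10.1% and 6.56%. The median log2 ratio was 0.29 over the 10 genes and -0.03 over the 11479 protein-coding genes at or above 1 FPKM in E and P. No test was run, because there is 1 library per stage.

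Between the E- and L-labelled libraries, 1 of the 10 genes, IGF2, was at least 2-fold apart, and it was lower in L. The background was 8.71% of protein-coding genes in either direction with 6.74% lower and 1.97% higher in L, so the share of 10% among the IGF genes was close to it. With at least 1 FPKM in either library, the background was 5.88%, with 4.31% lower and 1.57% higher in L. The log2 ratios of L over E ran from -1.38 for IGF2 to 0.34 for IGFBP6, with a median of -0.26 against -0.01 over all protein-coding genes at or above 1 FPKM in E and L.

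Between the P- and L-labelled libraries, IGF1, IGF2, IGFBP3 and IGFBP4 were at least 2-fold lower in L and 0 of the 10 were at least 2-fold higher. The background was 25.9% of protein-coding genes in either direction, with 17.4% lower and 8.56% higher in L. With at least 1 FPKM in either library, it was 24.5%, with 16.1% lower and 8.43% higher. The log2 ratios of L over P were -3.60 for IGF2, -2.16 for IGFBP3, -1.96 for IGFBP4 and -1.49 for IGF1, and the other 6 genes lay between -0.78 and 0.93. The comparisons of P with E and of L with P share the P-labelled library, so the same 4 genes in both are not 2 separate observations.

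**Figure D2:**
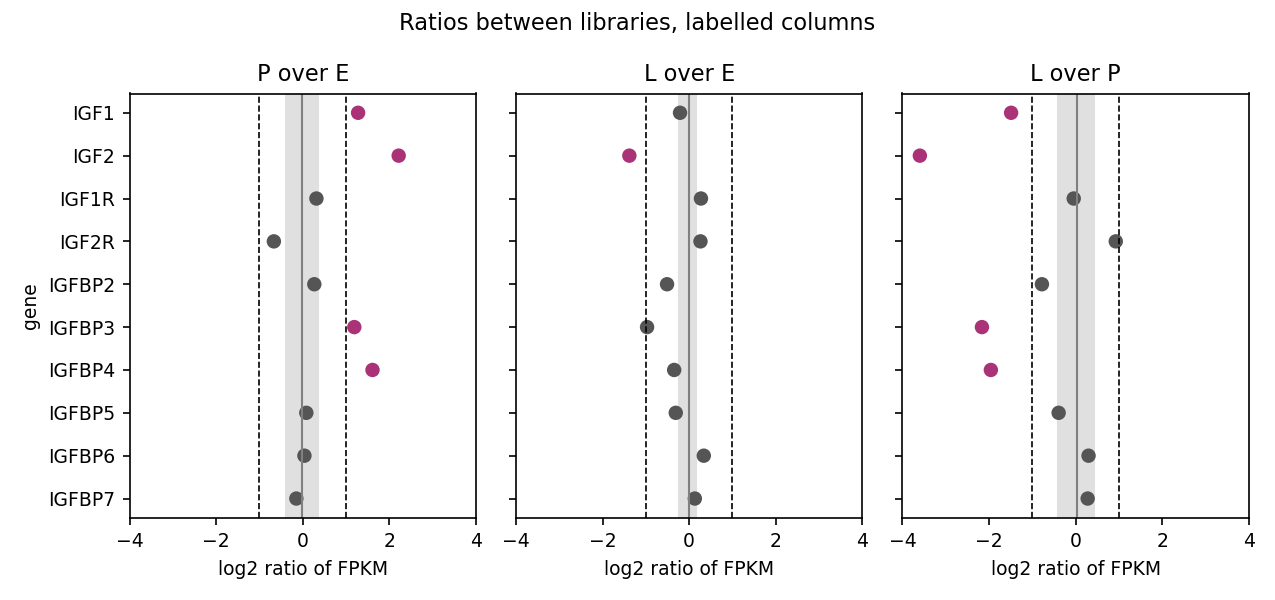
Log2 ratio of FPKM of each IGF gene for P over E, L over E and L over P by label, without replicates. Dashed lines mark 2-fold, the grey band is the interquartile range and the grey line the median of protein-coding genes at or above 1 FPKM in both, and purple points are at least 2-fold apart: 4 genes in P over E, IGF2 in L over E and 4 genes in L over P.

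Summed over genes, ligand RNA varied more than binding protein RNA. IGF1 and IGF2 together had 16.8 FPKM in the E-labelled, 50.9 FPKM in the P-labelled and 12.4 FPKM in the L-labelled library. The 6 binding proteins together had 231, 294 and 228 FPKM. The ratio of binding proteins to ligands was therefore 13.7 in the E-labelled, 5.77 in the P-labelled and 18.4 in the L-labelled library. Without the low-affinity IGFBP7, the ratios were 7.18, 3.82 and 8.69, in the same order of libraries.

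The composition of the binding protein RNA shifted with the library. IGFBP7 made up 47.6%, 33.7% and 52.8% of the summed FPKM in the E-, P- and L-labelled libraries. IGFBP3 and IGFBP4 together made up 18.9%, 38.5% and 11.9%. Per IGF1R, ligand FPKM was 0.963 in the E-labelled, 2.34 in the P-labelled and 0.586 in the L-labelled library. These are ratios of RNA levels and give no amount of peptide or of bound ligand.

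**Figure D3:**
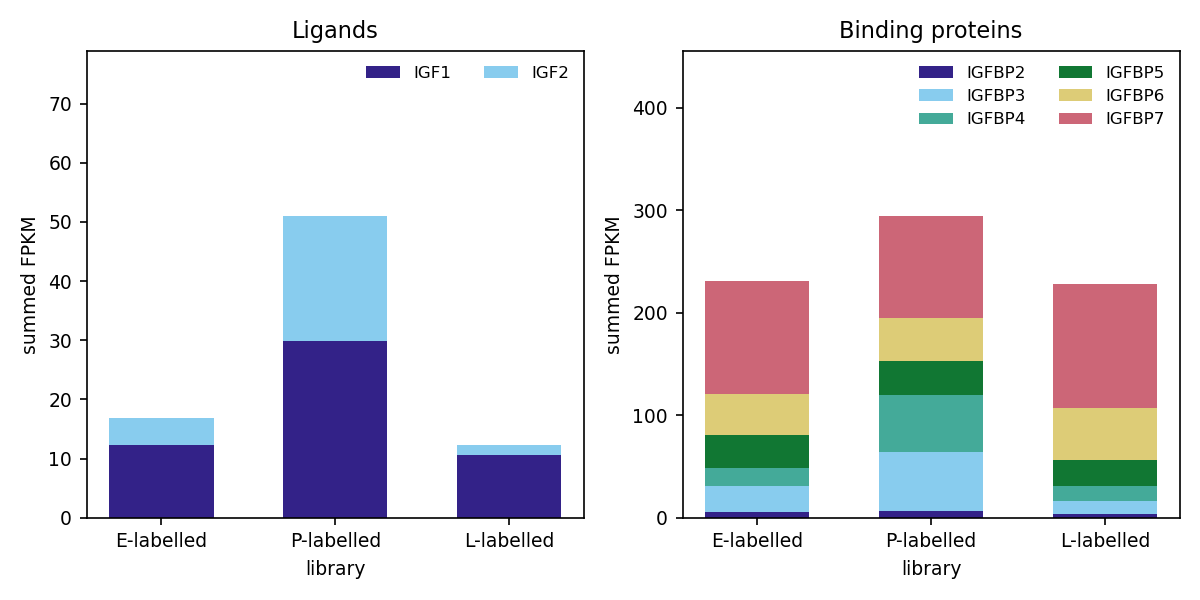
Summed FPKM of the ligands (left) and the 6 binding proteins (right) in each library, stacked by gene from 0, with 1 pooled library per bar. The ligand bar reaches 50.9 FPKM in the P-labelled library against 16.8 and 12.4 FPKM, while the binding protein bars lie between 228 and 294 FPKM.

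The loci beside the IGF genes were listed as well. Within 10 kb of the 10 genes lay 17 loci without a gene ID and 6 entries with one, at 7 of the genes. IGF2 shares its listed span with MIR483, the precursor of a miRNA within IGF2, which had 1.16, 2.74 and 1.38 FPKM in the E-, P- and L-labelled libraries. Both entries are listed over the same 7751 nt, and how reads were shared between them is not known. Like its host, MIR483 was highest in the P-labelled library, 2.36-fold above E, but its L level was not below its E level. The library kit keeps strand, but the deposited values list no strand and the sources used here do not say whether the quantification used it.

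Of the 17 loci without a gene ID, 11 were highest in the P-labelled library and 6 were at least 2-fold higher in P than in E, and those named here were chosen after their values were seen. The same shares over all loci without a gene ID were not computed, so these counts do not set the loci beside the IGF genes apart from others. Positions before and after a gene follow scaffold coordinates here, not the strand of the gene. XLOC_050366, a locus of 393 nt that starts 2340 nt after the end of IGF2 on the same scaffold, had 99.3, 219 and 86.3 FPKM in the E-, P- and L-labelled libraries. Its FPKM exceeded that of IGF2 in each library and was 2.20-fold higher in P than in E. How the FPKM of so short a locus compares with that of a gene listed over 7751 nt was not tested. XLOC_038011 and XLOC_038012, after the end of IGFBP4, were 2.09-fold and 2.94-fold higher in P than in E, in the same direction as IGFBP4. Before the start of IGF1R, XLOC_040519 had 0.199, 0.538 and 2.76 FPKM and XLOC_040520 had 0.537, 0.726 and 2.54 FPKM, both highest in the L-labelled library. IGF1R itself had nearly the same level in P and L, so these loci did not follow it. XLOC_003947, which starts 613 nt after the end of IGFBP5, had 1.83, 8.45 and 7.86 FPKM, while IGFBP5 stayed within 1.31-fold.

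Genes with the most similar pattern were sought by the distance between pairs of log2 ratios (P over E and L over E) across 11086 protein-coding genes with at least 1 FPKM in all 3 libraries. The pattern of a gene is thus only 2 ratios from 3 libraries, and the distances are a description. The nearest genes to IGF1 were LARP6, CD99 and FLYWCH2, and 17 genes lay within a distance of 0.1. The nearest to IGFBP3 were ANGPT2, FAM78A and ZNF521, with 10 genes within 0.1, and the nearest to IGFBP4 were SRXN1, RELN and ATP8A2, with 9 genes. IGF2 had 0 genes within 0.1, and its nearest genes were PROM1, ENTPD2 and SHISA2 at distances of 0.11, 0.18 and 0.27. Of the other IGF genes, IGFBP4 was the nearest to IGF1, at a distance of 0.36.

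Proteins that free, hold or degrade IGFs outside the cell were listed as a first group of pathway genes, and 12 of 16 had a value. In P over E, 4 were at least 2-fold higher, 1 was lower and 7 lay within 2-fold, and in L over P, 1 was higher and 5 were lower. STC2, stanniocalcin-2, a secreted inhibitor of the IGFBP protease PAPP-A, had 0.190, 4.43 and 0.147 FPKM in the E-, P- and L-labelled libraries. It was 23.4-fold higher in P than in E, from a level below 1 FPKM. PAPPA, the gene of PAPP-A, which cleaves IGFBP4, stayed low at 0.458, 0.919 and 0.253 FPKM, with its highest level also in the P-labelled library. STC1, another inhibitor of the same protease, had 1.47, 1.43 and 2.45 FPKM and was highest in the L-labelled library.

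Of the other genes of this group at least 2-fold apart in any comparison, PLAT, LRP1 and MMP2 were highest in the P-labelled library. HTRA1, ADAM9 and CTSD were also highest there, but lay within 2-fold in all comparisons. PLAT, tissue plasminogen activator, had 11.1, 39.0 and 9.20 FPKM. LRP1, an endocytic receptor that also binds IGFBP3, had 33.1, 67.3 and 29.1 FPKM. MMP2, a matrix protease that is also on the fibroblast marker list, had 42.8, 69.1 and 20.9 FPKM. KAZALD1, a secreted protein with a domain like that of the binding proteins, was the one gene of the group at least 2-fold lower in P than in E, at 1.10, 0.458 and 1.33 FPKM. The median log2 ratio of the 12 genes was 0.32 for P over E, -0.32 for L over E and -0.67 for L over P.

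Upstream of IGF1, growth hormone acts through GHR, JAK2 and STAT5, and 7 of 9 genes of this axis had a value. GHR, the growth hormone receptor, had 11.1, 16.7 and 12.04 FPKM in the E-, P- and L-labelled libraries, a difference within 2-fold. The feedback genes SOCS2 and CISH, which STAT5 induces, were lowest in the P-labelled library, where IGF1 was highest. SOCS2 had 24.0, 7.64 and 24.99 FPKM, and CISH had 16.0, 4.19 and 9.50 FPKM. SOCS1 had 4.14, 2.04 and 1.29 FPKM. SOCS3, a feedback inhibitor of cytokine signalling through STAT3, ran the other way with 4.87, 10.7 and 1.69 FPKM. In P over E, 1 of the 7 genes was at least 2-fold higher and 3 were lower, with a median log2 ratio of -0.89.

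Downstream of the receptors, most signalling genes lay within 2-fold. Of 20 genes, 18 had a value, and 16 of them were within 2-fold in P over E, 18 in L over E and 16 in L over P. IRS1, the adaptor that links IGF1R and INSR to PI3-kinase, had 21.1, 9.99 and 28.5 FPKM in the E-, P- and L-labelled libraries. GAB1, another docking protein, had 15.2, 6.48 and 20.2 FPKM. Both adaptors were thus lowest in the P-labelled library, by more than 2-fold against either of the others. AKT1, the kinase downstream of PI3-kinase, had 90.0, 49.8 and 88.1 FPKM, within 2-fold.

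**Figure D4:**
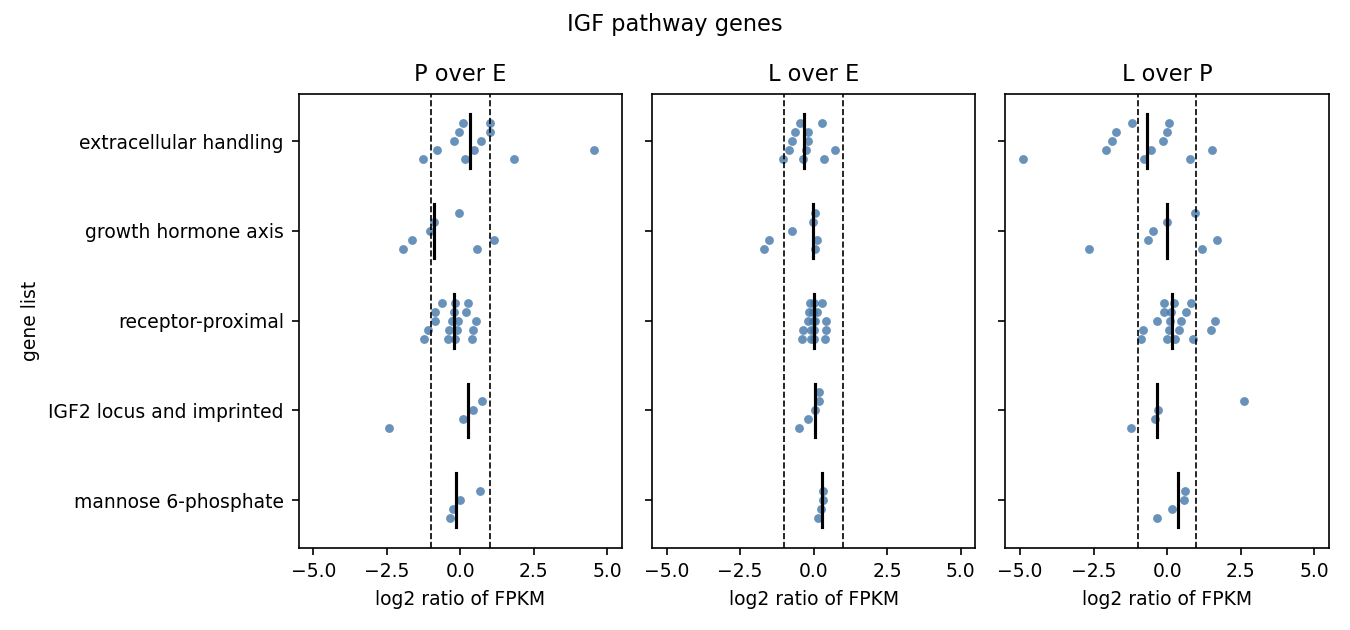
Log2 ratio of FPKM for P over E, L over E and L over P by label, with 1 point per gene of the 5 pathway lists, a black bar at each list's median and dashed lines at 2-fold. Genes listed at 0 in either library are left out. The receptor-proximal genes cluster near 0, with IRS1 and GAB1 beyond 2-fold in P over E, and STC2 is the far point in extracellular handling.

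Of the 10 listed genes of the IGF2 locus, of imprinted genes and of mRNA-binding partners, 5 had a value. IGF2BP2, which binds IGF2 mRNA, had 1.83, 0.340 and 2.09 FPKM in the E-, P- and L-labelled libraries, the opposite order to IGF2. IGF2BP3, of the same family, had 0.781, 1.303 and 0.556 FPKM. DLK1, another imprinted gene, had 1.56 and 1.78 FPKM in the E- and L-labelled libraries and was listed at 0 in the P-labelled one, so no fold is given. All 4 genes of the mannose 6-phosphate route, which tags lysosomal enzymes for IGF2R, lay within 2-fold in all 3 comparisons, with log2 ratios from -0.36 to 0.67.

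Over the 5 lists together, 46 of 59 genes had a value, and the other 13, among them IGFALS, PAPPA2, STAT5A, STAT5B, IRS2 and H19, were not analysed here. At least 2-fold apart were 13 genes between P and E, 5 higher and 8 lower in P, with DLK1 counted from a listed 0. The share of 28.3% stands beside the 17.7% of all protein-coding genes. Between L and E, 3 genes (SOCS1, SOCS3 and MMP2) were at least 2-fold lower in L and 0 were higher, a share of 6.52% beside 8.71%. Between L and P, 14 were at least 2-fold apart, 7 in each direction, a share of 30.4% beside 25.9%.

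Markers of other cell types moved with the same libraries, and in bulk tissue fewer cells of a type and less RNA per cell cannot be told apart. Of 8 lymphocyte markers, 5 were at least 2-fold higher in P than in E and 0 were lower, their summed FPKM was 300 in the E-labelled, 507 in the P-labelled and 352 in the L-labelled library, and CD3E was listed at 0 in E and P. JCHAIN, an immunoglobulin chain gene, made up most of this sum with 266, 429 and 337 FPKM, and the median log2 ratio of the list was 1.18 for P over E, -1.12 for L over E and -2.30 for L over P. The 5 measured macrophage markers all lay within 2-fold in P over E, with a median log2 ratio of 0.62, and their summed FPKM was 61.8, 87.7 and 37.3. In L over P, 3 of the 5 were at least 2-fold lower and 0 higher, with a median of -1.33. In L over E, 1 was at least 2-fold lower and 0 higher, with a median of -0.72. The part of these cells in the IGF values was not tested.

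The fibroblast and matrix markers did not move as a block. In P over E, PDGFRA and FBLN1 were at least 2-fold higher, the collagen genes COL1A2 and COL3A1 were at least 2-fold lower, and the other 6 of 10 lay within 2-fold. The median log2 ratio was 0.48 in P over E and -0.73 in L over P, whereas the summed FPKM was 795, 766 and 634 in the E-, P- and L-labelled libraries, so that median and sum differed in sign for P over E. With the IGF ratios of P over E set against this median, IGF2 at 1.74 and IGFBP4 at 1.13 remained past 2-fold, IGF1 at 0.80 and IGFBP3 at 0.71 did not, and IGF2R at -1.15 was then past 2-fold in the other direction. The part of fibroblasts in the IGF values was not tested. All 7 measured endothelial markers were within 2-fold in all 3 comparisons, whereas of 5 pericyte markers 1 was at least 2-fold lower in P than in E, 0 differed by 2-fold between L and E, and 2 (RGS5 and CSPG4) were at least 2-fold higher in L than in P. The adipocyte markers ADIPOQ, PLIN1 and CIDEC had a summed FPKM of 18.1, 5.85 and 6.41, highest in the E-labelled library and thus in another order than IGF1, IGF2, IGFBP3 and IGFBP4.

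**Figure D5:**
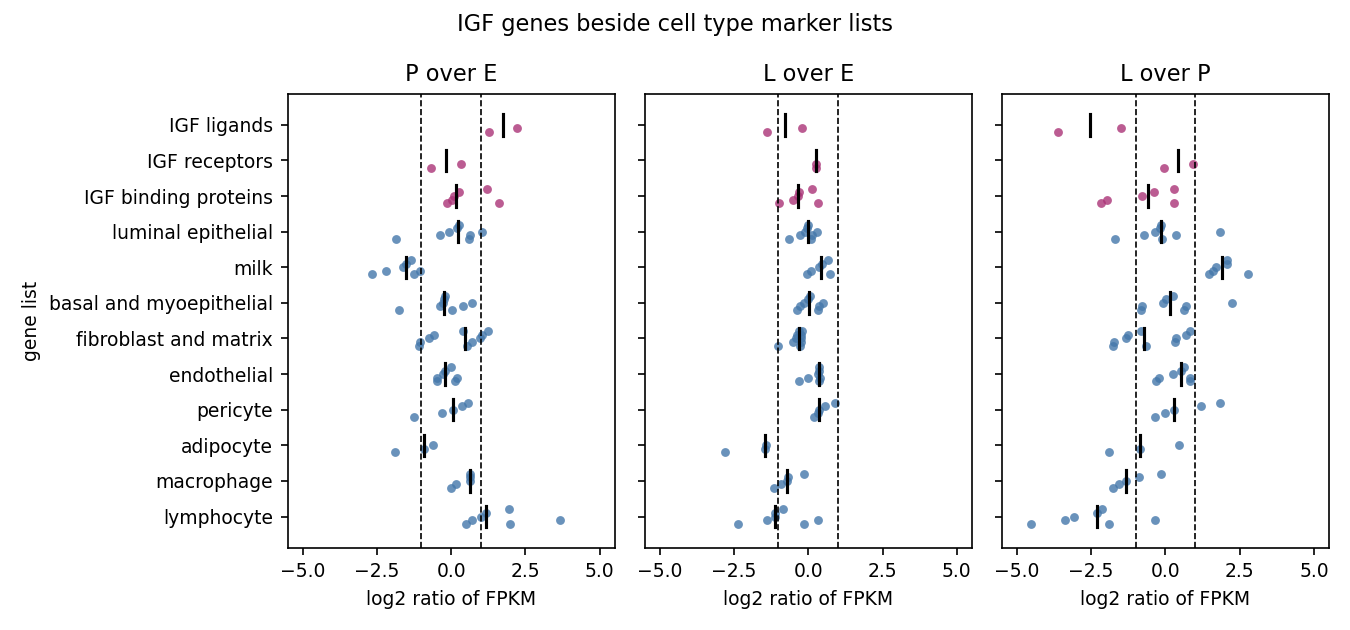
Log2 ratio of FPKM for P over E, L over E and L over P by label, with 1 point per gene, for the IGF ligands, receptors and binding proteins (purple) and cell type marker lists (blue), a black bar at each median and dashed lines at 2-fold. Milk genes lie beyond 2-fold on the low side in P over E, the IGF ligands and most lymphocyte markers lie on the high side, and fibroblast and matrix markers spread to both sides.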

How the data were processed

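RNA of 5 goats per stage was pooled into 1 stranded library for early, peak and late lactation. After trimming, the authors aligned reads with TopHat2 2.0.9, assembled transcripts with Cufflinks 2.1.1, merged them with Cuffmerge and quantified them with Cuffdiff, and deposited FPKM for 50041 loci. The methods name 2 goat genome references, and which of them the scaffold coordinates follow was not settled. Gene IDs were matched to the ARS1.2 gene table for symbols and classes only, for 14403 of 15274 loci with a single ID, and loci of one ID were summed.

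Genes were called apart at a ratio of at least 2, with 0 set to 0.001. With 1 library per stage no test was run. The IGF genes, the pathway and marker lists, the rules for named and similar genes and the alternatives were chosen with earlier results of these data known. Named were all IGF genes, up to 6 genes per pathway list that were 2-fold apart with at least 1 FPKM, and a fixed set including GHR, INSR, IRS1, STC1, STC2, PAPPA, SOCS2 and AKT1, and 1 gene of the rule is not reported here. Loci within 10 kb were listed. Fold calling was run on simulated data with planted changes above the limit and little noise. This checks the code only, and the noise of these libraries was not tested. Liver markers were listed as a check of other tissue: APOA1 had 2.09, 4.98 and 2.27 FPKM and TTR 2.33, 4.47 and 0.133 FPKM. Python 3.11.15, numpy 2.4.6, pandas 2.3.3 and matplotlib 3.10.9 were used.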

Additional observations from a re-analysis of the deposited data

How the results depend on the processing

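With 1 pooled library per stage, no replicate was left out and goat-to-goat spread cannot be seen. No paired analysis was possible because a single pool stands for every stage. The reads behind each locus are unknown, and with them the precision of low values such as STC2 and PAPPA. At a fold of at least 4, the IGF genes apart numbered 1 in P over E, 0 in L over E and 2 in L over P, and the pathway genes 3, 0 and 5. At a fold of at least 1.5, 2 IGF genes were apart in L over E, and the pathway genes numbered 22, 8 and 24. The shares of all protein-coding genes at these 2 folds were not computed, so the counts cannot be set against a background. With the columns labelled peak and late exchanged, 1 IGF gene and 3 pathway genes were apart in peak over early and 4 and 13 in late over early. The ratio of binding proteins to ligands was then 18.4 at peak and 5.77 at late lactation. The log2 ratios of peak over early became -0.21 for IGF1, -1.38 for IGF2, -0.97 for IGFBP3 and -0.35 for IGFBP4, that of late over early 2.22 for IGF2, and those of late over peak 1.49, 3.60, 2.16 and 1.96 for IGF1, IGF2, IGFBP3 and IGFBP4. These changes follow from the exchange itself.

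Adding 0.1 or 1 to every FPKM, a filter of 1 FPKM, the most abundant locus alone, centring on protein-coding genes and rescaling without the 10 most abundant loci left each count of IGF and pathway genes within 1.5 times its value. Adding 1 moved the pathway genes from 13 to 9 in P over E, from 3 to 2 in L over E and from 14 to 11 in L over P. The shares of all protein-coding genes with 1 added were not computed. Rescaling multiplied the E-, P- and L-labelled libraries by 0.938, 1.13 and 0.953, which turned IGFBP7 in P over E from -0.15 to 0.12 and moved the pathway genes in P over E from 5 higher and 8 lower to 6 and 4, and in L over P from 7 and 7 to 6 and 10. Centring on fibroblast and matrix markers gave 2 and 13 in P over E and 17 and 4 in L over P, and on luminal markers 2 and 12, and 9 and 7. For the IGF genes in L over P, fibroblast centring gave 3 higher and 3 lower, the higher ones being IGF2R at 1.66, IGFBP6 at 1.03 and IGFBP7 at 1.01. Luminal centring gave 1 higher, IGF2R at 1.08, and 4 lower. Rescaling gave 0 higher and 5 lower, with IGFBP2 at -1.02. In P over E, luminal centring left 3 higher, with IGFBP3 at 0.95, and fibroblast centring 2 higher and 1 lower. Leaving out genes listed at 0, chosen after seeing the data, gave 12, 3 and 13 pathway genes.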
